A study of Mus musculus with 12 samples.

Results

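AP-1 (activator protein 1) is a family of dimeric transcription factors, and the genes described here are its 7 Fos and Jun members: Fos, Fosb, Fosl1, Fosl2, Jun, Junb and Jund. They were chosen by symbol from the 24502 genes of an RNA sequencing table of mouse regulatory T cells. All 7 were among the 14827 genes with enough counts to be tested, and none was dropped by the filter on low counts. The table holds 12 libraries in 4 groups of 3. The groups are Gpx4-deficient cells after stimulation, wild-type cells after stimulation, unstimulated Gpx4-deficient cells and unstimulated wild-type cells. Gpx4-deficient cells carry the strain label Foxp3CreGpx4fl/fl, in which Cre recombinase expressed from Foxp3 cuts a loxP-flanked Gpx4 in Foxp3-expressing cells. The other strain is labelled only WT, so that an effect of the Cre allele and one of Gpx4 loss cannot be told apart. The titles number the libraries of each genotype in a separate stretch. Any difference in preparation between the genotypes therefore cannot be told apart from genotype either. Both strains were 11 weeks old per the labels, and stimulated cells spent 4 h on a plate coated with anti-CD3 and anti-CD28 (5 µg/ml). No culture time is labelled for the unstimulated cells, so stimulation and time in culture cannot be told apart.

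Fos and Jun proteins bind DNA as pairs through a basic region and a leucine zipper. Jun proteins can pair with themselves or with a Fos protein, whereas Fos proteins need a Jun partner. Fos, Fosb, Jun and Junb are immediate early genes, whose short-lived transcripts are made within minutes of a signal through the MAP kinases and soon decay. Fosl1 and Fosl2 encode Fra-1 and Fra-2, Fos relatives that lack the strong activation domain of Fos and often follow it in time, and Jund is the member usually expressed most evenly. In T cells, AP-1 joins NFAT on the Il2 gene and joins BATF and IRF4 on others, and in mice Junb is known to be needed by effector regulatory T cells. Fos, Jun and heat shock genes are also known to rise while cells are taken from tissue and sorted.

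Fos, Jun and Junb are the 3 members whose response to stimulation differed between the genotypes, and the 250 bases before the start of each are printed here to show what their promoters hold. The sequences are from RefSeq for GRCm38.p6, in which 6 of the 7 members had a promoter entry. Each is written 5′ to 3′ on the strand of its gene. Capitals mark TGACG, which begins the cyclic AMP response element, TATAAA (the usual form of the TATA box), the AP-1-like site TGACATCA, the heat shock element GAANNTTC and CCAAT.
Fos, chr12:85473640-85473889, plus strand: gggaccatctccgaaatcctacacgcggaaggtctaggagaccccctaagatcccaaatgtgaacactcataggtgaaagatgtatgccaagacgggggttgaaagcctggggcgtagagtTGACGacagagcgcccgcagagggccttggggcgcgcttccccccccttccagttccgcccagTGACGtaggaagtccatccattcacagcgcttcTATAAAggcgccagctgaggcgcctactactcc
Jun, chr4:95052223-95052472, minus strand: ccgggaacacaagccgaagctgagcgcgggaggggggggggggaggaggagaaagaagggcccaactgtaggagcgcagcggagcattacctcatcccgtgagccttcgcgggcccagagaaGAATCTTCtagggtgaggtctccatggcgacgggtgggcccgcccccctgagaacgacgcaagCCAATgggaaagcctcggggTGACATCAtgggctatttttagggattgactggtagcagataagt
Junb, chr8:84978749-84978998, minus strand: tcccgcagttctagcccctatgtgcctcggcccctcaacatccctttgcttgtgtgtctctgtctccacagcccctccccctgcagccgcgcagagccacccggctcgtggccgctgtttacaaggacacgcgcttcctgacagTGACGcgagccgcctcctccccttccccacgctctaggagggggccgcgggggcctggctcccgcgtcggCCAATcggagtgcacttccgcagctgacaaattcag

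The Fos promoter held TGACG at -129 and -66 from the start, which are the first bases of the motifs, and TATAAA at -33. The Jun promoter held TGACATCA at -45, a heat shock element at -128 and CCAAT at -65. The Junb promoter held TGACG at -106 and CCAAT at -36. Outside the printed promoters, Fosb held TGACG at -60 and Fosl2 a heat shock element at -244. Neither motif was therefore particular to the printed genes. Both strands were searched. Of 32851 mouse promoters searched, 17.8% held TGACG, 12.4% TATAAA, 2.93% TGACATCA, 6.69% GAANNTTC and 33.8% CCAAT in the same window. That search left out a chromosome and any shorter windows. Neither the AP-1 site TGACTCA (4.46% of promoters), the full element TGACGTCA (1.55%), which contains TGACG, nor the CArG box (1.47%) was present in these letters. Bases farther upstream were not searched, so that such motifs may stand there. A GC box (GGGCGG), found in 32.7% of promoters, stood in Fos and Jun and was left in lower case. Matches of this kind describe the letters and not binding.

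Gpx4, which encodes an enzyme that reduces lipid hydroperoxides, averaged 7.02 ± 3.21 CPM in stimulated Gpx4-deficient cells against 86.5 ± 19.4 CPM in stimulated wild-type cells (SD, n = 3 each). Without stimulation it averaged 8.20 ± 3.77 CPM in Gpx4-deficient cells against 153.7 ± 16.1 CPM in wild-type cells. Every Gpx4-deficient library (3.34 to 12.3 CPM) lay below every wild-type library (69.2 to 172.1 CPM). CPM are counts scaled to the size of the library. The defining regulatory T cell gene Foxp3 was detected in all 12 libraries, at 22.3 to 75.9 CPM in Gpx4-deficient cells and 20.6 to 43.5 CPM in wild-type cells. Library totals ran from 24629230 to 31879267 counts. The stimulated Gpx4-deficient libraries stood apart: their pairwise correlations of log2 CPM across genes were 0.686 to 0.733, against 0.830 to 0.948 in the other groups. In each of them 106 to 190 genes were at 0 that averaged at least 5 CPM in the other libraries, against 9 to 68 such genes in the other groups. Leaving out the one with 190 such genes, replicate 3, left the number of members called in every comparison as it was. The labels do not say whether the libraries of a group came from separate animals, so p-values speak only of the spread among these libraries, and that spread may be technical. In bulk RNA, fewer cells of a type and less RNA per cell cannot be told apart.

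The summed transcript of the family was higher in unstimulated than in stimulated cells, and Gpx4-deficient cells held more of it than wild-type cells without stimulation and less of it after stimulation. Per kilobase of exon, which allows levels of different genes to be added, the 7 genes summed to 458.2 ± 60.1 CPM per kb in stimulated Gpx4-deficient cells and 700.3 ± 53.0 CPM per kb in stimulated wild-type cells. In unstimulated cells the sum was 3527 ± 245 CPM per kb in the Gpx4-deficient group and 1967 ± 204 CPM per kb in the wild-type group (SD, n = 3 each). The libraries of the 4 groups did not overlap in this sum, which ran from 395.7 to 515.7, 643.4 to 748.4, 3247 to 3708 and 1828 to 2202 CPM per kb in the same order. Junb took the largest share of it in stimulated cells of both genotypes and in unstimulated wild-type cells. In unstimulated Gpx4-deficient cells Fos had the largest mean share, but its libraries (38.5% to 42.3%) overlapped those of Junb (34.0% to 38.7%). Which of these 2 leads there also depends on the exon lengths used.

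**Figure D1:**
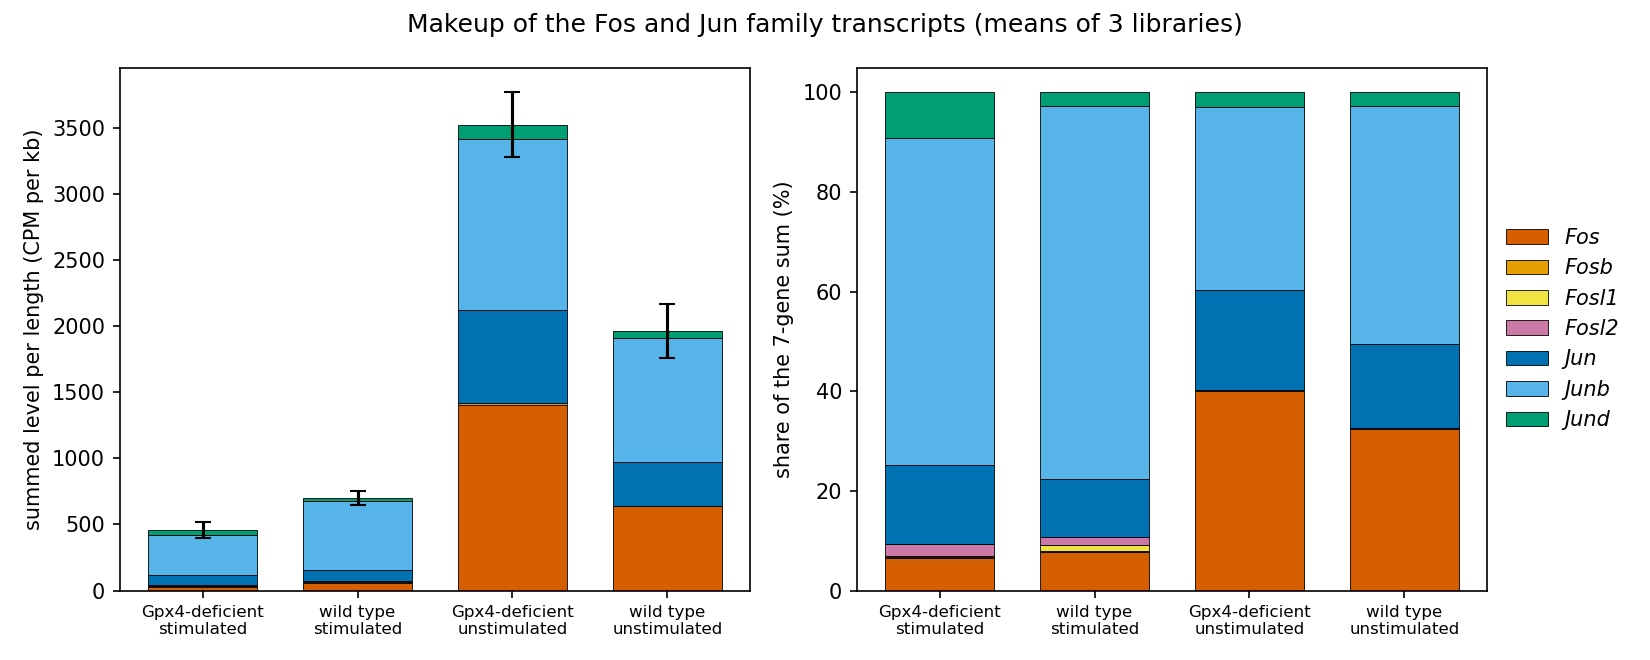
Summed level per length of the 7 genes (left, CPM per kb of exon, bars are means of 3 libraries with the SD of the sum) and each gene's share of that sum (right, percent). Fos took 6.48% and 7.75% in the stimulated Gpx4-deficient and wild-type groups but 40.0% and 32.3% in the unstimulated ones, while Junb took the largest share of both stimulated groups.

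The makeup of the pool also differed between the groups. Junb took 65.7% ± 2.01 of the per-kilobase sum in stimulated Gpx4-deficient cells and 74.8% ± 2.05 in stimulated wild-type cells, against 36.6% ± 2.39 and 47.8% ± 1.89 in the unstimulated groups of the same genotypes. Fos took 6.48% ± 0.42 and 7.75% ± 0.29 of it after stimulation and 40.0% ± 2.07 and 32.3% ± 0.98 without. In both unstimulated groups Fos outweighed its partner Jun, with per-kilobase ratios of 2.0 ± 0.11 in Gpx4-deficient and 1.92 ± 0.12 in wild-type cells. After stimulation that ratio was 0.414 ± 0.037 in Gpx4-deficient and 0.671 ± 0.068 in wild-type cells, and the ranges of the libraries did not overlap between the genotypes. The ratio of all Fos to all Jun transcripts was 0.104 ± 0.010 and 0.121 ± 0.008 in the stimulated groups, Gpx4-deficient and wild type, and 0.677 ± 0.058 and 0.482 ± 0.022 in the unstimulated ones. Jund, at 9.15% ± 2.48, had a larger share in stimulated Gpx4-deficient cells than in the other 3 groups, where it took 2.79% to 3.00%. Shares and ratios are descriptions and were not tested.

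**Figure D2:**
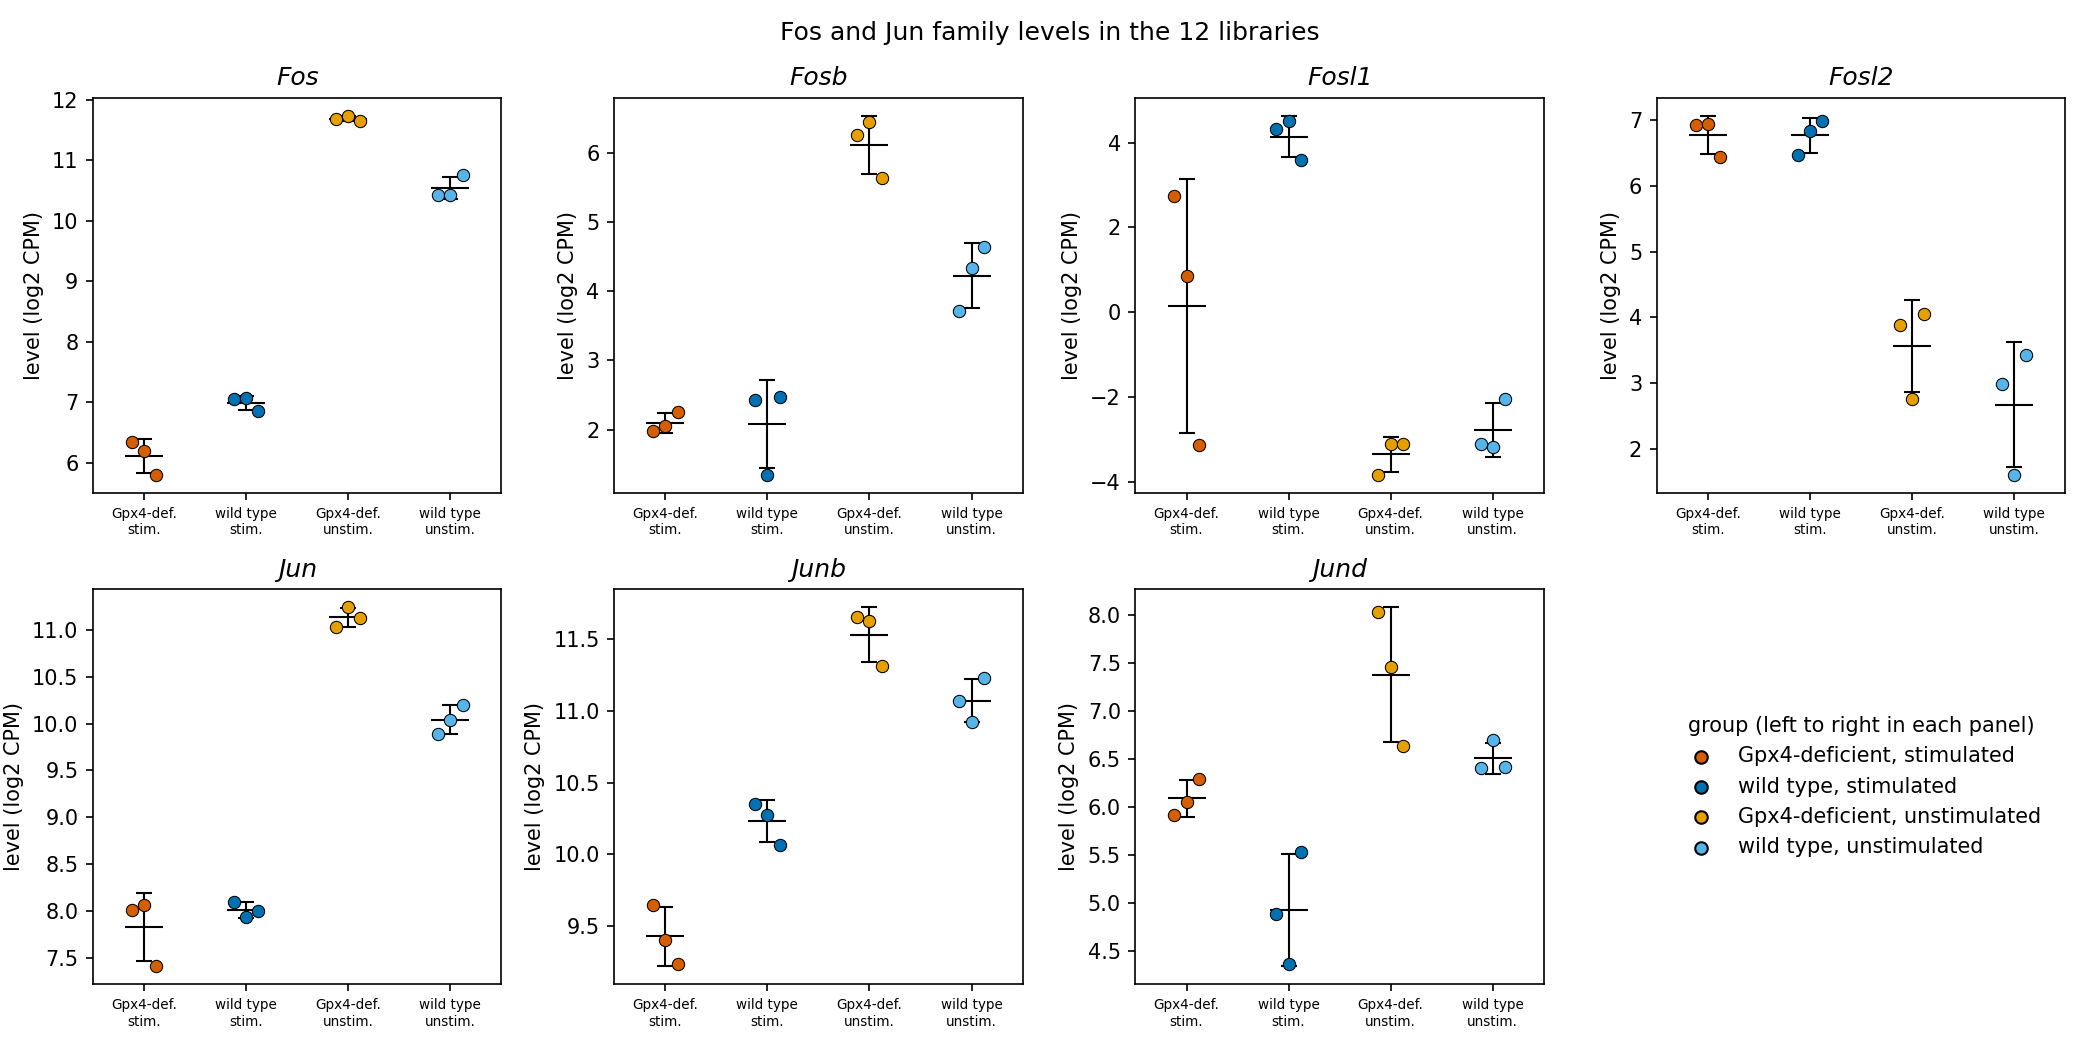
Level of each gene in every library (log2 CPM, prior count 2), with 1 panel per gene and the 4 groups from left to right; points are libraries, and horizontal and vertical bars are the mean and SD of 3. Fos, Fosb, Jun, Junb and Jund were highest in unstimulated Gpx4-deficient cells, and Fosl1 and Fosl2 reached their highest levels after stimulation.

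Fos, the partner that binds DNA only together with a Jun protein, spans bases 85473890 to 85477273 of chromosome 12 (GRCm38, plus strand, 4 exons in its longest transcript). After stimulation it had 81.0, 73.5 and 55.9 CPM in the Gpx4-deficient libraries (replicates 1 to 3) and 132.3, 134.7 and 116.0 CPM in the wild-type libraries. Without stimulation it had 3280.1, 3408 and 3233 CPM in the Gpx4-deficient libraries and 1384, 1384 and 1728 CPM in the wild-type libraries. No 2 of the 4 groups overlapped: unstimulated Gpx4-deficient cells were highest and stimulated Gpx4-deficient cells lowest. The group means were 70.1 ± 12.9 and 127.7 ± 10.2 CPM after stimulation and 3307 ± 90.7 and 1499 ± 199 CPM without, with Gpx4-deficient before wild-type cells each time (SD, n = 3 each).

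Fosb, a close relative of Fos, lies on chromosome 7 from 19302696 to 19310051 (minus strand). It followed the same order at a lower level. Its stimulated libraries had 3.88, 4.10 and 4.71 CPM in Gpx4-deficient cells and 5.33, 2.47 and 5.46 CPM in wild-type cells. Its unstimulated libraries had 76.2, 86.9 and 49.6 CPM in Gpx4-deficient cells and 13.0, 20.0 and 24.9 CPM in wild-type cells. The stimulated groups overlapped, and every unstimulated Gpx4-deficient library lay above every unstimulated wild-type library.

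Fosl1 (Fra-1, chromosome 19 from 5447547 to 5455946, plus strand) was almost silent without stimulation. Its expected counts after stimulation were 183.6, 56.1 and 1.01 in the Gpx4-deficient libraries and 489.8, 590.9 and 296.9 in the wild-type libraries. Unstimulated libraries held 0, 1 and 1.05 counts in Gpx4-deficient cells and 1, 1 and 4.15 in wild-type cells. Thus 1 stimulated Gpx4-deficient library was as low as unstimulated ones, and the other 2 lay below every stimulated wild-type library. On the CPM scale the stimulated libraries had 6.59, 1.73 and 0.038 in Gpx4-deficient cells and 19.9, 22.8 and 12.0 in wild-type cells.

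Fosl2 (Fra-2, chromosome 5 from 32135801 to 32157842, plus strand) was high after stimulation in both genotypes. It had 122.4, 123.8 and 86.5 CPM in stimulated Gpx4-deficient libraries and 88.5, 114.9 and 127.8 CPM in stimulated wild-type libraries. Unstimulated libraries had 14.7, 6.69 and 16.5 CPM in Gpx4-deficient cells and 7.86, 2.97 and 10.7 CPM in wild-type cells. The genotypes overlapped in both states, and no unstimulated library reached a stimulated one. Per kilobase, the ratio of Fosl2 to Fos was 0.384 ± 0.022 in stimulated Gpx4-deficient cells and 0.213 ± 0.053 in stimulated wild-type cells, and about 0.001 in both unstimulated groups.

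Jun, the founding member and the common partner of Fos, is a single-exon gene on chromosome 4 from 95049034 to 95052222 (minus strand). It had 258.7, 267.5 and 170.8 CPM in stimulated Gpx4-deficient libraries and 274.6, 244.6 and 256.3 CPM in stimulated wild-type libraries. Without stimulation it had 2097, 2420.3 and 2229 CPM in Gpx4-deficient cells and 945.2, 1052 and 1173 CPM in wild-type cells. The stimulated groups overlapped, while each unstimulated Gpx4-deficient library was above each unstimulated wild-type one.

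Junb, which also pairs with BATF in T cells, is a single-exon gene in its longest transcript on chromosome 8 from 84974484 to 84978718 (minus strand). It had 799.6, 676.2 and 602.4 CPM in stimulated Gpx4-deficient libraries and 1308, 1241 and 1073 CPM in stimulated wild-type libraries. Without stimulation it had 3227, 3175 and 2542 CPM in Gpx4-deficient cells and 2147, 1941 and 2399 CPM in wild-type cells. As for Fos, no 2 groups overlapped, and stimulated Gpx4-deficient cells were lowest.

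Jund is a single-exon gene on chromosome 8 from 70698949 to 70700616 (plus strand). It had 60.2, 66.3 and 78.3 CPM in stimulated Gpx4-deficient libraries and 29.4, 20.5 and 45.9 CPM in stimulated wild-type libraries. Without stimulation it had 261.6, 175.9 and 99.3 CPM in Gpx4-deficient cells and 84.7, 103.4 and 85.2 CPM in wild-type cells. The unstimulated groups overlapped in the lowest Gpx4-deficient library, and the stimulated Gpx4-deficient libraries lay above the wild-type ones. Jund was the only member with a higher mean in stimulated Gpx4-deficient than in stimulated wild-type cells outside the spread of the libraries.

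Overlapping genes touch 4 of these values. Opposite-strand genes overlap Fosl1 (Ccdc85b, 10.4 to 34.2 CPM over the 12 libraries), Jun (Junos, 0 to 0.299 CPM), Junb (Prdx2, 47.9 to 176.1 CPM) and Jund (Gm11175, 0 to 0.275 CPM). The library kit kept the strand, but whether the counting used it is not given in the sources used here. In CPM, which counts reads and does not allow for length, Ccdc85b averaged 13.9 CPM in stimulated Gpx4-deficient and 17.5 CPM in stimulated wild-type cells, where Fosl1 averaged 2.79 and 18.3 CPM, and it exceeded Fosl1 many times over in both unstimulated groups. For Junb the neighbour's level was far below its own. No member shared 50 bases at 95% identity with another gene's transcript.

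In unstimulated cells, Fos and Jun were about 2.2 and 2.1 times as high in Gpx4-deficient as in wild-type cells. Fos rose by 1.14 (log2, SE 0.14, adjusted p = 0.00785, edgeR) and Jun by 1.09 (SE 0.15, adjusted p = 0.0243, edgeR). These 2 of 7 members passed the test in the higher direction and none in the lower, where 0.0540% (8 genes) and 0.0135% (2 genes) of all tested genes did. Fosb was 3.67 times as high with a wider error (log2 fold change 1.88, SE 0.42, 95% interval 0.96 to 2.79, adjusted p = 0.262, edgeR), and Junb 1.38 times as high (0.46, SE 0.13, adjusted p = 0.467, edgeR). Neither passed the test. All libraries of the 2 genotypes stood apart for these 4 members, against 18.3% of all genes. Jund had a difference of 0.97 (95% interval 0.22 to 1.73), Fosl2 one of 0.82 (-0.14 to 1.77) and Fosl1 one of -1.47 (-4.81 to 1.88), which rests on 2 against 6 counts. The median difference of the 7 members was 0.97, beside 0.006 over all tested genes.

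The Fos call was lost without Gpx4-deficient replicate 2 or wild-type replicates 1 or 2 (adjusted p = 0.0711, 0.108 and 0.115, edgeR), although the difference stayed between 1.10 and 1.30. The Jun call was lost without any 1 library of the unstimulated groups or of the stimulated wild-type group (adjusted p = 0.0602 to 0.228, edgeR), with differences of 1.03 to 1.21. Heat shock and other early response genes moved in the same comparison. Of a list of 26 genes known to respond to tissue handling, 5 were called higher and none lower, among them the chaperone genes Hspa1a (2868 ± 542 against 367.2 ± 27.7 CPM) and Dnajb1 (730.0 ± 52.9 against 319.5 ± 16.8 CPM) and the phosphatase gene Dusp1 (3062 ± 150 against 2039 ± 123 CPM), Gpx4-deficient before wild type. Of all tested genes, 0.0540% were called higher and 0.0135% lower in this comparison. The list summed to 21318 to 26481 CPM in the unstimulated Gpx4-deficient libraries and 10704 to 11430.4 CPM in the unstimulated wild-type libraries. Mitochondrially encoded transcripts took 1.72% to 1.94% and 1.21% to 1.38% of the counts in the same order. The part of neither in the Fos and Jun difference was tested.

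After stimulation the direction was the opposite for Fos and for Junb. Fos was lower in Gpx4-deficient than in wild-type cells, with a difference of -0.86 on the log2 scale (SE 0.14, adjusted p = 0.00760, edgeR), and so was Junb, at -0.80 (SE 0.13, adjusted p = 0.0104, edgeR). These 2 of 7 members passed in the lower direction and none in the higher, beside 1.25% and 1.03% of all tested genes. Libraries of the genotypes did not overlap for 4 members, Fos, Fosl1, Junb and Jund, where 20.1% of all genes did so. Fosl1 had 241 against 1378 counts over its 3 libraries each, a ratio of 0.152 (exact 95% interval 0.132 to 0.174, counting error only). Between libraries its spread was wide, and the difference did not pass (log2 fold change -2.71, SE 1.37, adjusted p = 0.317, edgeR). Jund was 2.14 times as high in Gpx4-deficient cells (1.10, SE 0.35, 95% interval 0.34 to 1.86, adjusted p = 0.132, edgeR).

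Jun differed by -0.15 (95% interval -0.49 to 0.18), Fosl2 by 0.01 (-0.93 to 0.94) and Fosb by -0.06 (-0.96 to 0.84). For Fosl2 and Fosb these intervals hold changes of nearly 2-fold in either direction. The median over the 7 members was -0.15, beside 0 over all genes tested. Without wild-type replicates 1 or 2 the calls of Fos (adjusted p = 0.0572 and 0.0621, edgeR) and Junb (0.0742 and 0.0723) were lost, at differences of -0.81 and -0.75 for Fos and -0.72 and -0.71 for Junb. In a fit of only the 2 stimulated groups, adjusted p was 0.180 for Fos and 0.119 for Junb (edgeR). Mitochondrially encoded transcripts took 2.84% to 3.72% of the counts in the stimulated Gpx4-deficient libraries and 1.18% to 1.37% in the stimulated wild-type ones, and their part in these differences was not tested.

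**Figure D3:**
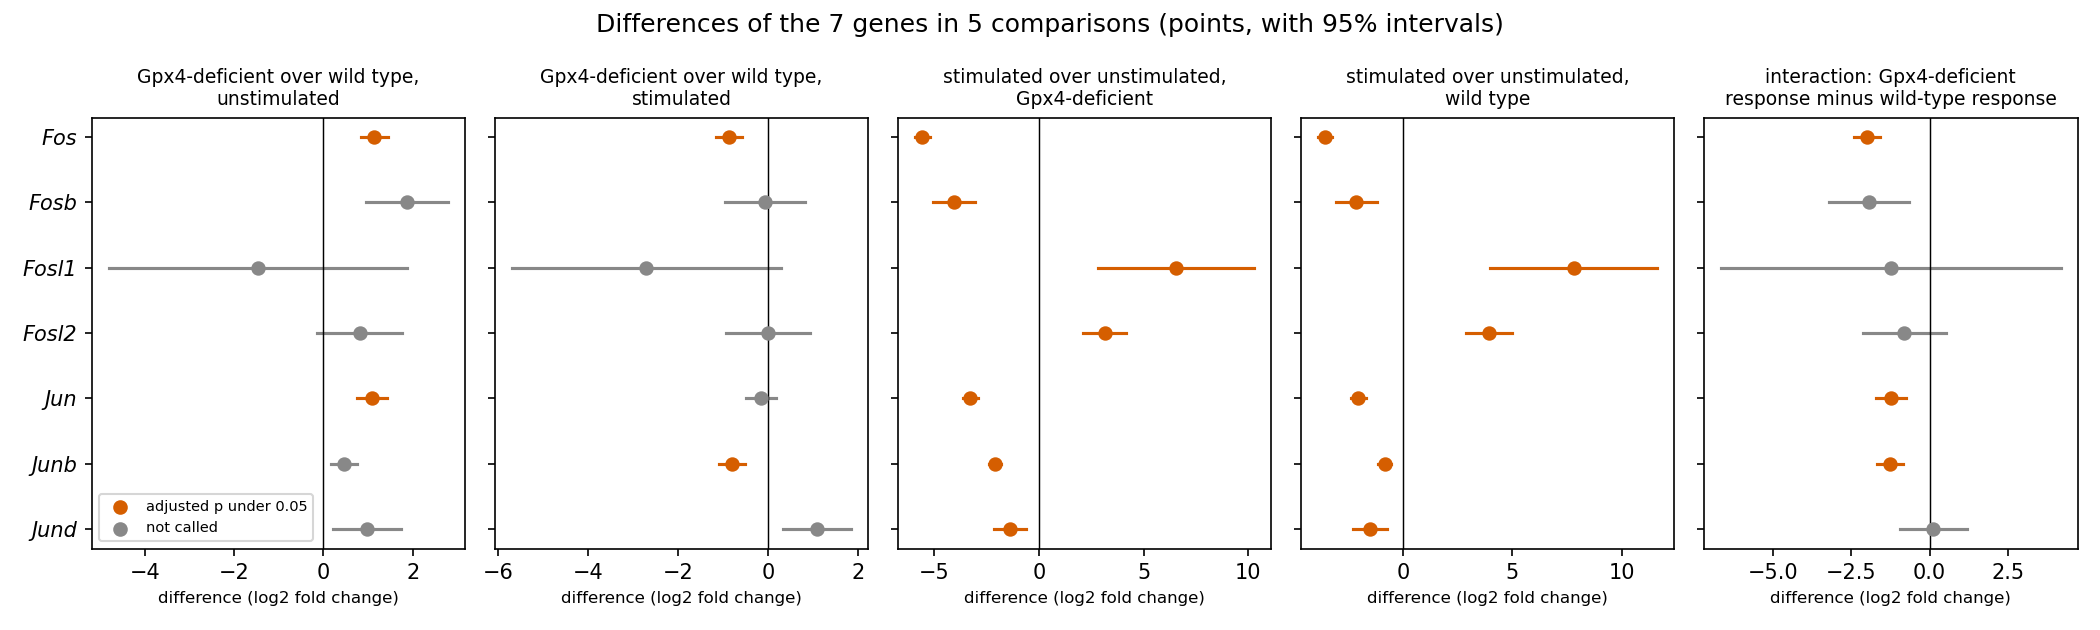
Log2 fold changes of the 7 genes in the 5 comparisons, with 95% intervals from the edgeR fit; orange marks an adjusted p under 0.05 and the horizontal scales differ between panels. Fos was higher in unstimulated and lower in stimulated Gpx4-deficient cells, and its interaction of -2.01 was the farthest from 0 in standard errors among the 7.

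All 7 members were called between stimulated and unstimulated cells in both genotypes, 5 of them lower and 2 higher after stimulation. Time in culture cannot be told apart from stimulation in these differences. In Gpx4-deficient cells Fos fell 47.1-fold (a log2 difference of -5.56, SE 0.16, adjusted p = 3.45e-09, edgeR), and in wild-type cells 11.7-fold (-3.55, SE 0.15, adjusted p = 4.45e-08, edgeR). Fosb fell 16.8-fold in Gpx4-deficient and 4.37-fold in wild-type cells (adjusted p = 9.76e-05 and 0.0057, edgeR). Jun fell 9.68-fold and 4.09-fold in the same order (adjusted p = 1.53e-07 and 4.57e-06, edgeR). Junb, the least changed of these 4 in both genotypes, fell 4.30-fold and 1.79-fold (adjusted p = 1.21e-06 and 0.00114, edgeR). Jund fell 2.62-fold and 2.85-fold (adjusted p = 0.0190 and 0.0146, edgeR).

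The 2 Fos relatives with weak activation domains went the other way. Fosl2 rose 8.80-fold in Gpx4-deficient cells (3.14 on the log2 scale, SE 0.47, adjusted p = 0.00077, edgeR) and 15.4-fold in wild-type cells (3.95, SE 0.48, adjusted p = 0.000182, edgeR). Fosl1 rose in both genotypes, with 241 stimulated against 2 unstimulated counts in Gpx4-deficient cells, a ratio of 112.5 (exact 95% interval 30.8 to 933.8). In wild-type cells it had 1378 against 6 counts, a ratio of 238.8 (109.4 to 651.9). Both intervals cover counting error only, and the edgeR test gave adjusted p = 0.0228 in Gpx4-deficient and 0.012 in wild-type cells. Stimulated and unstimulated Gpx4-deficient libraries overlapped for Fosl1, because of replicate 3. Without that library the Fosl1 difference was 7.13 on the log2 scale (adjusted p = 0.00268, edgeR).

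Among all genes, 7.45% were called higher and 7.83% lower with stimulation in Gpx4-deficient cells, and 6.12% and 5.41% in wild-type cells. Stimulated and unstimulated libraries did not overlap for 6 of the 7 members in Gpx4-deficient cells and for all 7 in wild-type cells, where 29.8% and 42.0% of all genes did so. The median difference of the members was -2.11 in Gpx4-deficient cells and -1.51 in wild-type cells, beside -0.02 and -0.03 over all genes. The 10 calls of Fos, Fosb, Fosl2, Jun and Junb held without any 1 of the 12 libraries. Fosl1 lost its call in Gpx4-deficient cells without any 1 unstimulated Gpx4-deficient library (adjusted p = 0.0705 to 0.0738, edgeR) or stimulated replicate 1 (0.0506), and in wild-type cells without unstimulated replicates 1 or 2 (0.0685 and 0.0692). Jund lost its call in Gpx4-deficient cells without stimulated replicate 1 (0.0584) or unstimulated replicates 1 or 2 (0.0906 and 0.0516), and in wild-type cells without stimulated replicates 1 or 2 (0.0682 and 0.0708) or unstimulated replicate 2 (0.0578).

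The fall with stimulation was steeper in Gpx4-deficient than in wild-type cells for Fos, Jun and Junb. The interaction, which subtracts the wild-type response from the Gpx4-deficient one, was -2.01 for Fos (SE 0.19, 95% interval -2.42 to -1.59, adjusted p = 0.00206, edgeR). It was -1.26 for Junb (SE 0.19, interval -1.67 to -0.86, adjusted p = 0.0280, edgeR) and -1.24 for Jun (SE 0.22, interval -1.71 to -0.77, adjusted p = 0.0492, edgeR). Thus 3 of 7 members were called lower and none higher, beside 0.175% and 0.0270% of all genes tested. For Fosb the interaction was -1.94 (interval -3.21 to -0.66, adjusted p = 0.358, edgeR), of the size of that of Fos with a standard error 3 times as wide. Fosl1 (-1.24, interval -6.67 to 4.19), Fosl2 (-0.81, interval -2.14 to 0.53) and Jund (0.12, interval -0.94 to 1.18) were not called. The median over the members was -1.24, beside -0.01 over all genes.

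The same libraries enter the interaction and the comparisons it is made of, so that these are not independent. For Fos, the unstimulated difference of 1.14 and the stimulated difference of -0.86 both enter it. For Jun nearly all of it came from the unstimulated side (1.09 against -0.15), and for Junb more from the stimulated side (0.46 against -0.80). The Fos interaction was called without any 1 of the 12 libraries (adjusted p up to 0.0275, edgeR). That of Junb was called only without unstimulated Gpx4-deficient replicate 3 or any 1 stimulated Gpx4-deficient library, and otherwise lost (0.0697 to 0.144). That of Jun was called only without any 1 stimulated Gpx4-deficient library and otherwise lost (0.129 to 0.232), and it was lost with 2 other scalings of the counts (0.0549 and 0.0577). Of all tested genes, 0.175% were called lower and 0.0270% higher in the interaction. Within the list of genes known to respond to handling, 23 of 26 had an interaction below 0 and 5 were called, all lower. The list median was -0.63 beside -0.01 over all genes. Among the 5 were the early genes Nr4a1 (-1.28, adjusted p = 0.0204), Ier2 (-1.13, adjusted p = 0.0294), Dusp1 (-0.73, adjusted p = 0.0298) and Egr1 (-1.43, adjusted p = 0.0359, all edgeR). Nr4a1, Ier2 and Egr1 rose with stimulation in wild-type cells, where Fos, Jun and Junb fell. Dusp1 (log2 fold change -2.26) and Dnajb1 (-1.66), which completes the 5, fell there as well. The list summed to 10414 to 10737 CPM in stimulated and 21318 to 26481 CPM in unstimulated Gpx4-deficient libraries, and to 11281 to 11589.6 CPM in stimulated and 10704 to 11430.4 CPM in unstimulated wild-type libraries. Its part in the interaction was not tested.

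Ordered by mean level, 5 members shared 1 pattern up to its lower end. Fos, Fosb, Jun and Junb ran from unstimulated Gpx4-deficient over unstimulated wild-type and stimulated wild-type to stimulated Gpx4-deficient cells. The last 2 groups overlapped for Fosb and Jun and did not for Fos and Junb. Jund had the same 2 unstimulated groups on top, which overlapped, and stimulated wild-type cells lowest. Fosl2 had both stimulated groups on top, overlapping, and both unstimulated groups below, also overlapping. Fosl1 ran from stimulated wild-type over stimulated Gpx4-deficient to unstimulated cells, and only its top group stood clear of the next. The spread within groups was smallest for Fos in unstimulated Gpx4-deficient cells, with a coefficient of variation of 2.74%. Among the stimulated Gpx4-deficient libraries it was largest for Fosl1, at 122%.

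Likeness of pattern was measured as the root mean square difference of log2 CPM after each gene was centred on its mean over the 12 libraries. Among the members the closest pair was Fosb and Jun (0.52), followed by Jun and Junb (0.69), and the farthest was Fos and Fosl1 (5.17). The genes closest to Jun among 10308 compared were Dusp1 (0.23), Dnajb1 (0.29) and Ppp1r15a (0.35), beside a median of 1.58 over all of them. Dusp1 encodes a phosphatase that switches off MAP kinases, Dnajb1 a co-chaperone of HSP70 and Ppp1r15a a phosphatase subunit of the integrated stress response. Fosb was closest to Jun, Dnajb1 (0.60) and Dusp1 (0.65).

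**Figure D4:**
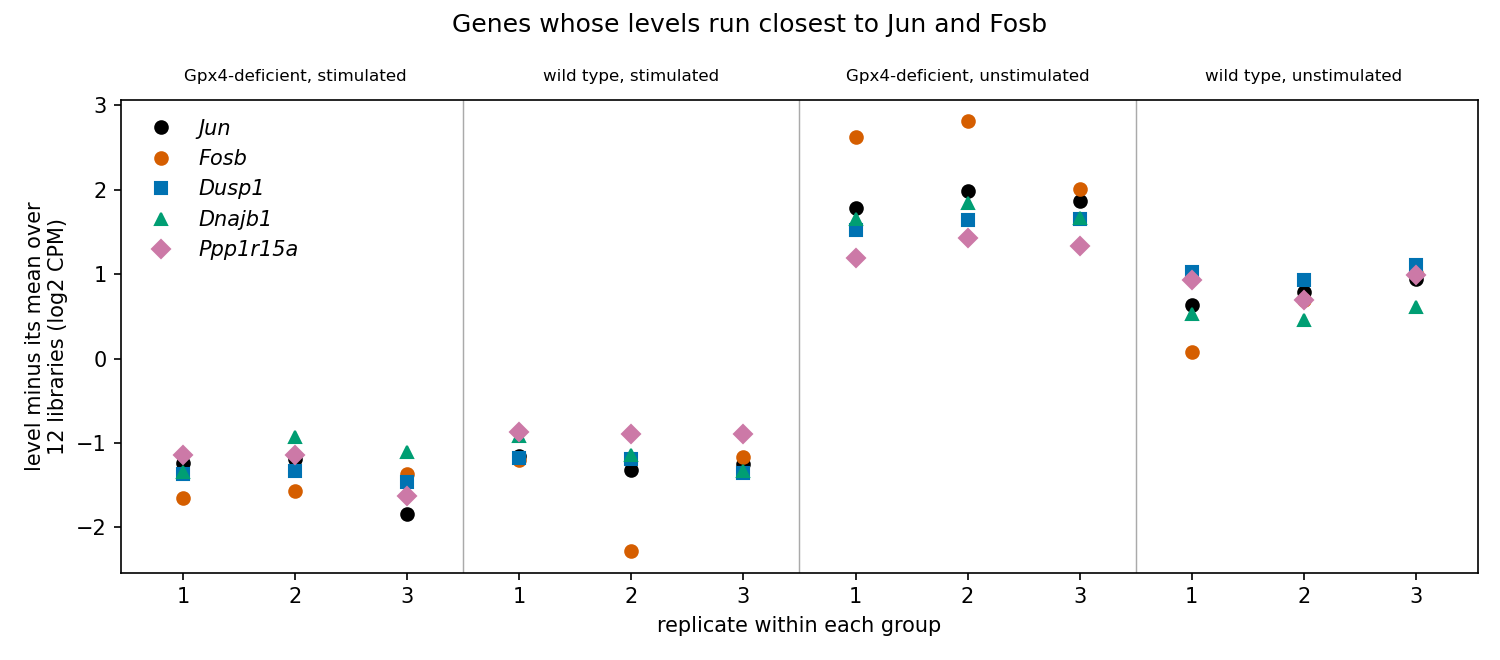
Level of Jun, Fosb and the 3 genes nearest to Jun in each library, as log2 CPM minus the gene's own mean over 12 libraries; replicates are numbered within each group. The 5 genes lay below their mean in all 6 stimulated libraries and were highest in the 3 unstimulated Gpx4-deficient libraries, with Fosb spread more widely than the others.

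The nearest genes of Fos were farther from it, with Igfbp4 at 0.66, Ddx60 at 0.83 and Evl at 0.84 beside a median of 2.41. Igfbp4, which encodes a binding protein of insulin-like growth factors, shared the fall with stimulation but not the genotype difference. It had 8.0 ± 3.52 and 12.2 ± 4.48 CPM in stimulated and 354.7 ± 48.9 and 383.2 ± 43.5 CPM in unstimulated cells, Gpx4-deficient before wild type. Junb was closest to Pecam1 (0.23), Lef1 (0.24) and Srrt (0.26), of which Lef1 encodes a transcription factor of naive T cells. Jund was closest to Ttyh3 (0.26), Zfp36l2 (0.28) and Grap2 (0.32), the last an adaptor of T cell receptor signalling. Fosl2 ran closest to Itgb8 (0.52), D030028A08Rik (0.56) and Furin (0.57). Itgb8 encodes an integrin subunit with which regulatory T cells activate TGF-β, and it had 210.9 ± 61.0 and 194.1 ± 27.3 CPM in stimulated against 24.8 ± 4.33 and 16.9 ± 3.29 CPM in unstimulated cells, in the same order of genotypes. Fosl1, the most variable member, was closest to Ccl20 (1.49), Atf3 (1.67) and Pycr1 (1.72) beside a median of 3.31.

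Some other leucine zipper genes rose with stimulation. Of 13 tested relatives, 6 were called higher and none lower in Gpx4-deficient cells, and 3 and none in wild-type cells, and the others did not pass the test. Of all tested genes, 7.45% were called higher and 7.83% lower in Gpx4-deficient cells, and 6.12% and 5.41% in wild-type cells. Atf3, a stress-induced partner of Jun, averaged 152.2 ± 125 CPM in stimulated against 11.6 ± 9.45 CPM in unstimulated Gpx4-deficient cells (adjusted p = 0.0223, edgeR). In wild-type cells Atf3 averaged 292.8 ± 13.3 against 7.49 ± 6.45 CPM (adjusted p = 0.00513, edgeR). Atf4 and Mafg rose in both genotypes too. Between genotypes only Maf was called, after stimulation, at 164.4 ± 34.9 CPM in Gpx4-deficient and 55.4 ± 12.6 CPM in wild-type cells (adjusted p = 0.0134, edgeR). Batf, the partner of Junb on IRF4 sites, had 116.1 ± 17.2 and 118.2 ± 19.3 CPM after stimulation and 79.4 ± 10.1 and 102.3 ± 10.5 CPM without, Gpx4-deficient before wild type, and was not called.

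Of the 5 NFAT and IRF partners, Irf4 and Irf8 rose and Nfatc2 fell with stimulation in both genotypes. Thus 2 were called higher and 1 lower in each genotype. The shares over all tested genes were 7.45% higher and 7.83% lower in Gpx4-deficient cells, and 6.12% and 5.41% in wild-type cells. Irf4 averaged 907.9 ± 100 CPM in stimulated against 52.0 ± 4.29 CPM in unstimulated Gpx4-deficient cells, and 736.4 ± 50.2 against 53.1 ± 9.38 CPM in wild-type cells (adjusted p = 2.38e-08 and 4.28e-08, edgeR). Nfatc2 was also higher in stimulated Gpx4-deficient than wild-type cells (84.7 ± 30.4 against 32.3 ± 9.78 CPM, adjusted p = 0.0328, edgeR). It was the only 1 of the 5 called there, where 1.03% of all tested genes were called higher and 1.25% lower. None of the 5 was called between genotypes without stimulation, where 0.0540% of all tested genes were called higher and 0.0135% lower. Nor was any called in the interaction, where 0.0270% and 0.175% were, so that these counts say nothing particular to the 5.

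Of the genes of the pathway that leads to Fos and Jun, the called ones between genotypes were Map3k1, Rps6ka1, Mef2d and Mrtfa, all after stimulation. Of 17 MAP kinase cascade genes none was called between genotypes in unstimulated cells, where 0.0540% of all tested genes were called higher and 0.0135% lower, so that this count says nothing particular to the list. In stimulated cells 1 was called higher and 1 lower, where 1.03% and 1.25% of all tested genes were. Map3k1, a kinase upstream of JNK, was higher in Gpx4-deficient cells (163.7 ± 19.0 against 92.2 ± 9.55 CPM in wild-type cells), and Rps6ka1, which encodes the ERK-activated kinase RSK1, was lower (80.4 ± 15.8 against 158.7 ± 19.0 CPM). With stimulation 4 were called higher and 2 lower in Gpx4-deficient cells, where 7.45% and 7.83% of all tested genes were. In wild-type cells 3 were called higher and 1 lower, where 6.12% and 5.41% of all tested genes were. The p38 activator Map2k3 was higher and Rps6ka1 lower with stimulation in both genotypes. Of 11 factors known to act on the Fos and Jun promoters, none was called between genotypes in unstimulated cells. At the shares called over all genes there, this too says nothing particular to the list. After stimulation Mef2d was higher (247.0 ± 3.26 against 131.3 ± 32.3 CPM) and Mrtfa lower (75.1 ± 0.68 against 133.9 ± 24.7 CPM) in Gpx4-deficient than in wild-type cells. Crem, a cyclic AMP responsive factor, rose with stimulation in both genotypes, to 627.1 ± 46.4 CPM in Gpx4-deficient cells, against 29.7 ± 9.22 CPM in unstimulated ones, and to 642.6 ± 115 CPM in wild-type cells, against 26.1 ± 4.73 CPM. Srf, which binds the CArG box, had 5.04 ± 4.25 and 8.97 ± 1.61 CPM in stimulated Gpx4-deficient and wild-type cells and 8.67 ± 5.00 and 5.01 ± 2.90 CPM in unstimulated ones, and was not called.

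Among 10 factors that act on the decay of Fos and Jun transcripts or proteins, Zfp36 and Zfp36l2 fell and Zfp36l1 rose with stimulation in both genotypes. In Gpx4-deficient cells 2 of the 10 were called higher and 2 lower, where 7.45% and 7.83% of all tested genes were. In wild-type cells 1 was called higher and 2 lower, where 6.12% and 5.41% of all tested genes were. Zfp36 encodes tristetraprolin, which binds AU-rich elements of short-lived transcripts. Its level fell to 200.1 ± 8.06 CPM in stimulated Gpx4-deficient cells, against 1088 ± 156 CPM in unstimulated ones, and to 168.8 ± 19.1 CPM in stimulated wild-type cells, against 684.3 ± 58.1 CPM (adjusted p = 2.68e-07 and 9.99e-07, edgeR). Between genotypes only Zfp36l2 was called, after stimulation, at 95.4 ± 10.9 CPM in Gpx4-deficient and 38.1 ± 14.2 CPM in wild-type cells (adjusted p = 0.0351, edgeR). There 1.03% of all tested genes were called higher and 1.25% lower. All 10 factors had a difference above 0 in that comparison, with a median of 0.75 beside 0 over all genes.

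Some genes whose promoters are known to carry AP-1 sites rose with stimulation, where Fos and Jun fell. Of 15 listed, 12 were tested, and none was called between genotypes in either state or in the interaction, which at the shares called over all genes says nothing particular to these 12. With stimulation 5 were called higher and none lower in each genotype. Of all tested genes, 7.45% were called higher and 7.83% lower in Gpx4-deficient cells, and 6.12% and 5.41% in wild-type cells. Cd69, an early activation marker, averaged 977.8 ± 69.7 CPM in stimulated and 455.3 ± 45.7 CPM in unstimulated Gpx4-deficient cells, and 953.4 ± 62.2 and 344.9 ± 22.0 CPM in wild-type cells (adjusted p = 2.09e-05 and 2.14e-06, edgeR). The cytokine gene Tnf averaged 97.3 ± 34.3 CPM in stimulated against 34.04 ± 9.02 CPM in unstimulated Gpx4-deficient cells, and 97.2 ± 15.1 against 20.3 ± 3.40 CPM in wild-type cells (adjusted p = 0.00576 and 0.000464, edgeR). Plaur and Il2 were called in both genotypes as well. The median difference with stimulation over the 12 tested genes was 2.74 in Gpx4-deficient and 2.94 in wild-type cells, beside -0.02 and -0.03 over all genes.

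Marker genes of other cell types were detected in all 4 groups. Macrophage markers summed to 60.2 to 90.9 CPM in stimulated Gpx4-deficient, 23.0 to 56.9 CPM in stimulated wild-type, 105.3 to 156.8 CPM in unstimulated Gpx4-deficient and 136.6 to 234.1 CPM in unstimulated wild-type libraries. Neutrophil markers summed to 4.95 to 74.8, 21.4 to 59.3, 4.96 to 11.8 and 29.5 to 99.7 CPM in the same order, B cell markers to at most 60.8 CPM, dendritic cell markers to at most 62.7 CPM and CD8 and NK markers to at most 32.1 CPM in any library. Of 10 neutrophil markers, 2 (Ly6g and Cxcr2) were at 0 in both unstimulated groups, as was 1 of 6 B cell markers (Pax5). The rest of these 2 lists had counts in at least 1 library of each unstimulated group. The part of these marker genes in the differences of the family was not tested. None of the tested macrophage markers was called between the genotypes in either state, which at the shares called over all genes says nothing particular to them. With stimulation 2 of 6 were called lower in wild-type cells, where 5.41% of all tested genes were. The regulatory T cell markers summed to 6937 to 7825 and 6587 to 7010 CPM in stimulated Gpx4-deficient and wild-type libraries, and to 3527 to 3834 and 3763 to 3822 CPM in the unstimulated ones.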

How the data were processed

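Stranded poly(A) libraries of mouse regulatory T cells used 600 ng of RNA each, per the labels' protocols. The authors deposited 1 table of RSEM expected counts per gene, which need not be whole numbers, for all 12 libraries. Per the submitters' processing notes the genome was GRCm38, and the aligner is not given in the sources used here. Each column was matched to its sample by title, with 0 columns left over.

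Expected counts were rounded and tested with the quasi-likelihood test of edgeR 4.0.16 (R 4.3.3; robust dispersion, TMM scaling, filterByExpr). The 4 groups were fitted together over the 12 libraries, which left 8 residual degrees of freedom. A gene was called at a Benjamini-Hochberg adjusted p under 0.05 over the 14827 tested genes. Standard errors come from the F statistic. Levels are CPM with TMM-scaled library sizes, and log2 CPM used a prior count of 2. Exon lengths and coordinates are from GENCODE M21, promoters from RefSeq and transcript copies from blastn 2.17.0+. The code was tested on simulated data. Intervals of counts are exact.

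The members and gene lists were chosen with earlier results of these data known. Genes outside the family were named by p within each list, up to 4 per comparison, and by likeness, 3 per member among genes whose log2 CPM averaged at least 1. Batf and Srf were added after their values were seen. Atf3 and Zfp36 stand in more than 1 list. Alternatives were 2 other scalings, DESeq2 1.42.0, limma-voom (limma 3.58.1), no low-count filter, the 2 groups alone, a replicate block and each library left out.

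Same-numbered libraries of different groups deviated with correlations of -0.040 to 0.070, so that the numbers were not taken to pair samples.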

Additional observations from a re-analysis of the deposited data

Results flagged for a closer look

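The response to stimulation differed between Gpx4-deficient and wild-type cells for 3 of the 7 members, by the test of the difference itself in edgeR. The interaction was -2.01 for Fos (adjusted p = 0.00206, edgeR), -1.26 for Junb (adjusted p = 0.0280, edgeR) and -1.24 for Jun (adjusted p = 0.0492, edgeR) on the log2 scale, with 3 libraries in each of the 4 groups. Only the Fos call held without any 1 library. None of these calls held with limma-voom or with a replicate block within genotype, although the replicate numbers are not known to pair the samples.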

How the results depend on the processing

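The stimulation calls of Fos, Fosb, Fosl2, Jun and Junb kept their direction under every alternative run, and only Fosb in wild-type cells lost its call (limma-voom). Calls between genotypes and of the interaction depended on the setting, and the causes were not tested. In the order unstimulated genotype, stimulated genotype, stimulation in Gpx4-deficient cells, stimulation in wild-type cells and interaction, the genes changed were 10, 337, 2266, 1709 and 30 in the report and 183, 1564, 3609, 2639 and 380 with DESeq2. With limma-voom they were 18 in the first and 0 in the last (1347 at an unadjusted p under 0.05). A fit of only the 2 groups compared gave 22, 1022 and 3499 in the middle 3. Leaving out each library gave 3 to 14, 117 to 658, 1649 to 2521, 1150 to 2197 and 2 to 167.

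Members called, 2, 2, 7, 7 and 3 of 7 in the report, were 4 in the first with DESeq2 (Fos, Fosb, Jun and Junb), 1 in the second and 0 in the last with limma-voom (3 at an unadjusted p under 0.05), and 0 in the second with only the 2 groups (3 unadjusted). Leaving out each library gave 0 to 2, 0 to 2, 5 to 7, 5 to 7 and 1 to 3. Under a replicate block, with the same fit otherwise, genes changed were 3, 171 and 5 in both genotype comparisons and the interaction, and members called were 0 (5 at an unadjusted p under 0.05) without stimulation and 1 in the interaction. With the replicate block within genotype, the interaction had 0 genes (886 unadjusted) and 0 members (4 unadjusted). The numbers are not known to pair the samples.

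Differences near 0 turned their sign: Fosl2 between stimulated genotypes to -0.00083 with upper quartile scaling, and Fosb to 0.024 with limma-voom. Without 1 library they ran from -0.10 to 0.18 for Fosl2, -0.29 to 0.19 for Fosb and -0.23 to 0.024 for Jun in that comparison, and from -0.16 to 0.52 for the Jund interaction. Depth limits Fosl1 in unstimulated cells, at 0 to 4.15 counts per library.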
